A study of Mus musculus with 9 samples.

Results

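The genes described here are 38 genes of the cell cycle and of cell proliferation, chosen by symbol from the deposited liver tables, which list 23183 genes for each mouse. A gene was kept if its value was above 0 in at least 1 liver, and all 38 were. Liver RNA of 9 male C57BL/6J mice was sequenced, with 1 library per mouse, and the labels give an age of 100 days after birth for all 9. The ND group (mice 6, 7 and 9) ate a normal diet with 14% fat and the HFD group (mice 1, 2 and 3) a high-fat diet with 60% fat, each for 10 weeks. The PRF 50 group (mice 3, 9 and 10) ate the HFD for 10 weeks and received, by mouth and once a day during the last 5 weeks, 50 mg/kg of PRF, a fraction rich in polymethoxyflavones prepared from the leaves of Citrus sunki. Whether the ND and HFD mice received the carrier of PRF is not stated, nor is the time of day at which the livers were taken. According to the paper, mice were fasted and anaesthetized with isoflurane before blood was taken. It also states that an oral glucose test was run on the final experimental day. The mouse numbers name animals within a group and pair no mice between groups.

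Values are log2(FPKM + 1), where FPKM counts sequenced fragments relative to transcript length and library size. A value of 1 therefore stands for 1 FPKM. The analysis had no read counts, so sequencing depth and counting error are unknown, and values below 1 FPKM are the least certain. Hepatocyte genes fit the labelled tissue: Apoa1 lay between 12.69 and 13.50 and Ttr between 11.97 and 12.84 in the 9 livers. Alb was listed at 0 in all 9 livers, so a 0 in these tables is reported only as listed at 0.

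A dividing cell passes through a growth phase, a phase of DNA synthesis, a second growth phase, and mitosis. Cyclins bind and switch on cyclin-dependent kinases (CDKs): D-type cyclins with Cdk4 and Cdk6 act first, E-type cyclins with Cdk2 start DNA synthesis, and A-type and B-type cyclins with Cdk1 drive mitosis. CDK inhibitors hold cells back, and the transcription factor p53 raises some of them after stress. Most hepatocytes of a healthy adult liver rest outside the cycle, are often polyploid, and can return to division after injury or loss of tissue.

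The most abundant of the 38 genes was Pcna, with a mean of 24.9 FPKM over the 9 livers, and the least abundant was Bub1, at 0.0439 FPKM. A mean of at least 1 FPKM was found for 21 of the 38 genes (55.3%), against 43.3% of all genes in the tables. The other 17 were Gadd45b, Mcm2, Mcm5, Cdk1, all 8 mitosis and proliferation markers, and 5 of the 8 cyclins (Ccna2, Ccnb1, Ccnb2, Ccne1 and Ccne2). A value above 0 in all 9 livers was found for 36 genes, while Ccnb1 was listed at 0 in ND mouse 6 and Plk1 in HFD mouse 1. Most members that act before and during DNA synthesis thus lay above 1 FPKM, apart from Ccne1, Ccne2, Mcm2 and Mcm5, and all members that act in mitosis lay below it, as the plot of all members by liver shows.

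**Figure D1:**
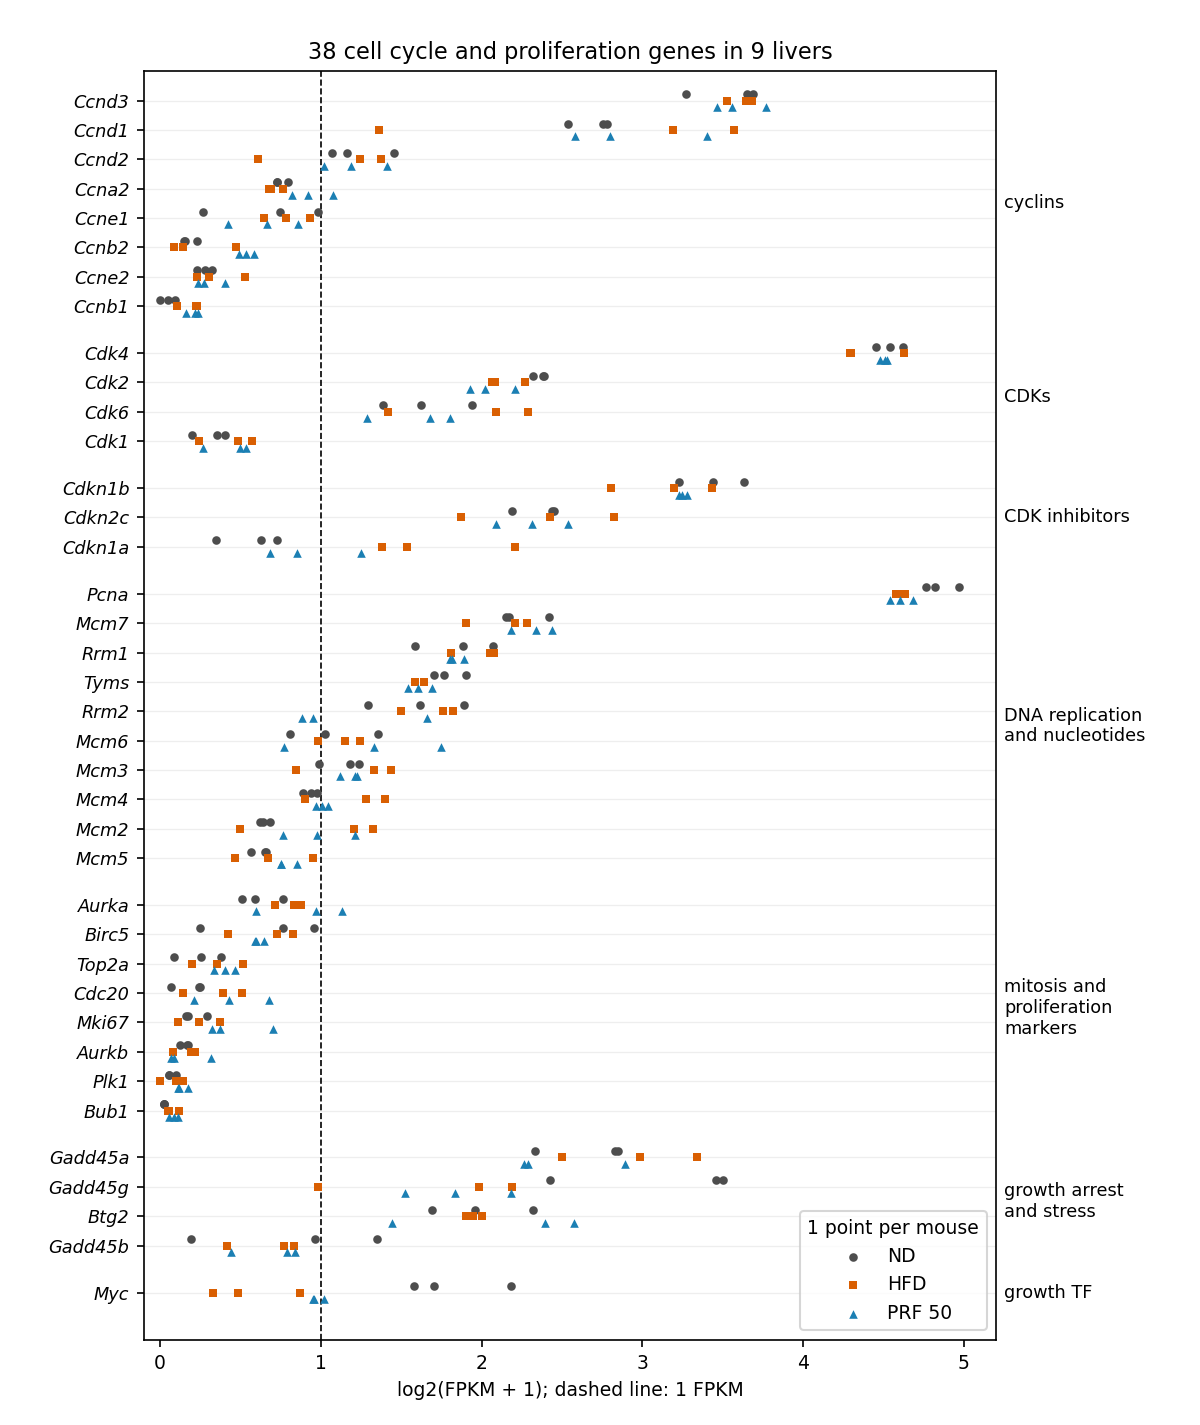
The 38 genes in each of the 9 livers as log2(FPKM + 1), 1 point per mouse, ordered by role and then by mean level. All 8 mitosis and proliferation markers have a mean below 1 FPKM, while Pcna and Cdk4 lie at 4.29 or above in every liver.

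Each comparison was fitted with limma over all genes that averaged 1 FPKM or more in its 6 mice. HFD vs. ND asks what the diet changed, PRF 50 vs. HFD what PRF changed on that diet, and PRF 50 vs. ND how the treated livers stood against the normal diet. The 3 comparisons share groups, so they are not independent of each other. For HFD vs. ND, 21 members were tested and limma called 1 at an adjusted p under 0.05, against 1.33% of all 9978 genes tested. At an unadjusted p under 0.05, 4 members were called (19.0%), against a background of 15.1%. Of these, 1 was higher in HFD (background 7.82%) and 3 were lower (background 7.26%). For PRF 50 vs. HFD, 21 members were tested and limma called 0 at an adjusted p under 0.05 (background 3.59%) and 2 at an unadjusted p under 0.05 (9.52%, background 20.2%). Both were lower in PRF 50, where 8.47% of all genes were higher and 11.8% lower. For PRF 50 vs. ND, 19 members were tested and limma called 0 at an adjusted p under 0.05 (background 0.458%) and 4 at an unadjusted p under 0.05 (21.1%, background 12.5%). All 4 of these were lower in PRF 50, where 6.06% of all genes were higher and 6.44% lower.

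These shares rest on at most 4 genes, so nothing particular to the list is read from them. The median difference of the tested members was 0.02 in HFD vs. ND, -0.02 in PRF 50 vs. HFD and -0.04 in PRF 50 vs. ND on the log2 scale, against -0.01, -0.02 and -0.03 over all genes tested. The genes that passed the level minimum are not all members, and no mitosis and proliferation marker is among them. Without a level minimum, all 38 members could be tested, and 5, 4 and 8 passed an unadjusted p under 0.05 in the 3 comparisons, against 11.8%, 16% and 11.2% of all genes. None of these passed an adjusted p under 0.05 in limma.

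**Figure D2:**
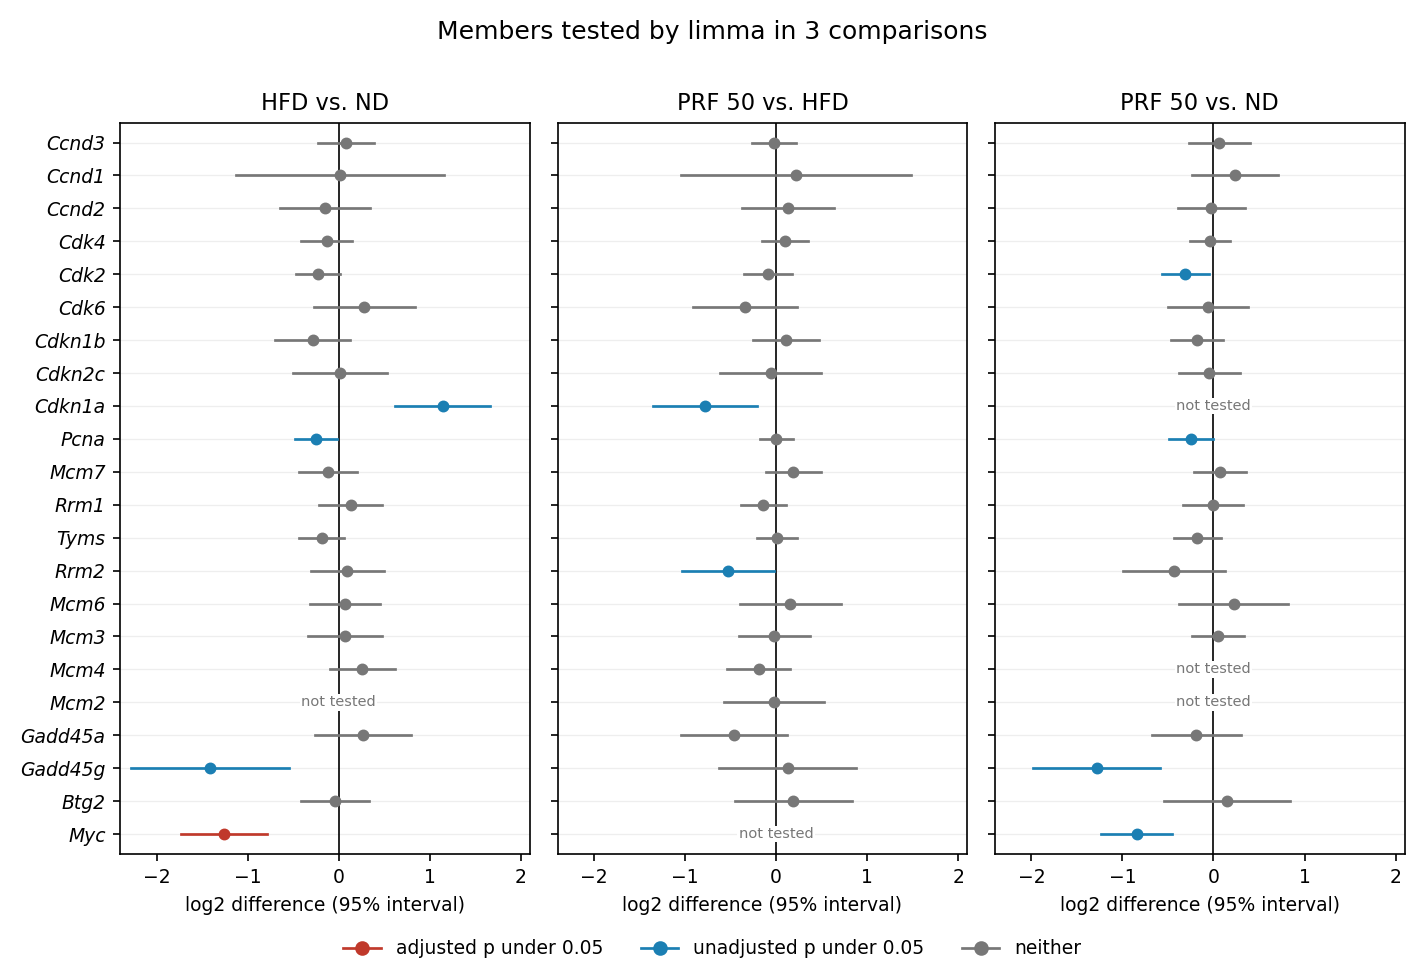
Log2 differences of the members tested by limma in HFD vs. ND, PRF 50 vs. HFD and PRF 50 vs. ND, with 95% intervals. Only Myc in HFD vs. ND passes an adjusted p under 0.05, and intervals of most other members include 0.

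Among the 8 cyclins of the 38 genes, the D-type cyclins that respond to growth signals were the only ones with a mean above 1 FPKM. Ccnd3 was the most abundant of the 8, with 3.69, 3.65 and 3.27 in ND mice 6, 7 and 9, 3.53, 3.65 and 3.68 in HFD mice 1, 2 and 3, and 3.47, 3.77 and 3.56 in PRF 50 mice 3, 9 and 10. The groups overlapped, and its 3 log2 differences lay between -0.02 and 0.08. Ccnd1, named here after its values were seen, stood out for 1 mouse: it was 1.36 in HFD mouse 1, against 3.19 and 3.57 in HFD mice 2 and 3, 2.54, 2.75 and 2.78 in ND, and 3.40, 2.58 and 2.80 in PRF 50. With all mice the HFD vs. ND difference was 0.02 (95% interval -1.12 to 1.16). Without HFD mouse 1 it was 0.69 in limma, with an unadjusted p of 0.0029 and an adjusted p of 0.0981. The value of Ccnd1 in the HFD group thus rests on which mice are counted.

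HFD mouse 1 was also the lowest of the 9 livers for Ccnd2 (0.61), Mcm2 (0.50), Mcm3 (0.84), Mcm5 (0.47), Mcm7 (1.90) and Mki67 (0.11). It was the lowest for Ccna2 (0.68), Ccnb2 (0.09) and Plk1 (listed at 0) as well. It was the highest for Cdk4 (4.63), Cdkn1a (2.21) and Cdkn2c (2.82). The 10 endothelial markers summed to 26.6 FPKM in this mouse, against 61.6 and 86.4 FPKM in HFD mice 2 and 3, 70.5 to 117 FPKM in ND and 64.8 to 112 FPKM in PRF 50. Clec4g, the most abundant of them, was 3.14 in HFD mouse 1 and between 4.60 and 5.46 in the other 8 livers, and none of the 10 was listed at 0 in all livers. In HFD vs. ND, 9 of the 10 had a lower mean in HFD, and 3 of them passed an unadjusted p under 0.05 (30%, against 15.1% of all genes), a count that was 1 without HFD mouse 1 or ND mouse 7 and 7 without HFD mouse 3. In bulk tissue, fewer cells of a type and less RNA per cell cannot be told apart, and the part of endothelial cells in the low Ccnd1 of this mouse was not tested. Without HFD mouse 1, 7 of 20 tested members (35%) passed an unadjusted p under 0.05 in HFD vs. ND and 5 of 21 (23.8%) in PRF 50 vs. HFD. The shares of all genes in the same fits were 15.3% and 19.5%. No fit without another mouse gave higher counts, and with all mice 4 (19%) and 2 (9.52%) members passed. This mouse was singled out by values of these members, so nothing particular to the list is read from the counts without it. The 7 in HFD vs. ND were Ccnd1, Cdk6, Gadd45a and Mcm4, higher in HFD, and Cdkn1b, Gadd45g and Myc, lower in HFD. Of these, Mcm4 reached the level minimum only through the HFD mice and Myc only through the ND mice, where each is high. The 5 in PRF 50 vs. HFD were Cdk6, Cdkn1a, Gadd45a and Mcm4, lower in PRF 50, and Cdk4, higher in PRF 50. Cdkn1a reached the minimum there only through the HFD mice. In each of these fits the HFD group held 2 mice.

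Of the kinases, Cdk4 was the most abundant, with 4.62, 4.54 and 4.45 in ND, 4.63, 4.30 and 4.29 in HFD, and 4.51, 4.52 and 4.48 in PRF 50. The groups overlapped, and with all mice no comparison passed an unadjusted p under 0.05. Cdk2, the partner of the E-type cyclins, was 2.38, 2.39 and 2.32 in ND, 2.08, 2.07 and 2.27 in HFD, and 2.21, 1.93 and 2.02 in PRF 50. All 6 livers on the high-fat diet were thus below all 3 ND livers. The log2 difference in PRF 50 vs. ND was -0.31 (95% interval -0.57 to -0.05), with an unadjusted p of 0.0237 and an adjusted p of 0.311 in limma. Without ND mouse 7, PRF 50 mouse 9 or PRF 50 mouse 10, the unadjusted p was 0.0678, 0.0897 and 0.0636. The difference of Cdk2 in HFD vs. ND was -0.22, with an unadjusted p of 0.0633 in limma. Cdk6 lay between 1.29 and 2.29, and Cdk1, the kinase of mitosis, between 0.20 and 0.57, below 1 FPKM in all 9 livers.

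The 3 CDK inhibitors on the list are Cdkn1a (p21), Cdkn1b (p27) and Cdkn2c (p18). Cdkn1b was the most abundant, with 3.63, 3.44 and 3.23 in ND, 3.44, 3.20 and 2.80 in HFD, and 3.28, 3.23 and 3.25 in PRF 50, and with all mice it passed no unadjusted p under 0.05. Cdkn1a is a classical target of p53 and lies at chr17:29090976-29100727 (GRCm38). It was 0.35, 0.63 and 0.72 in ND, 2.21, 1.54 and 1.38 in HFD, and 1.25, 0.68 and 0.85 in PRF 50. Every HFD liver was above every ND and every PRF 50 liver, and ND and PRF 50 overlapped. On the FPKM scale the group means were 0.491 in ND, 2.38 in HFD and 0.927 in PRF 50, so even the high group was at a low level. Its mean reached the level minimum only through the HFD mice, where it is high, so that being tested at all depended on the difference.

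The log2 difference of Cdkn1a in HFD vs. ND was 1.14 (95% interval 0.62 to 1.66), with an adjusted p of 0.0642 in limma and an unadjusted p of 0.000984. With all 9 mice in 1 fit the adjusted p was 0.0486, and over all alternatives that could test the gene it ran from 0.0486 to 0.174, with 0.146 without a level minimum. At this low level the size depends on the pseudocount, and with 0.1 in place of 1 the difference was 2.04. In PRF 50 vs. HFD the difference was -0.78 (95% interval -1.35 to -0.21), with an adjusted p of 0.132 in limma and an unadjusted p of 0.0138, or -1.25 with a pseudocount of 0.1. Without HFD mouse 1 this difference was -0.53, with an unadjusted p of 0.0283. Without that mouse in HFD vs. ND, the mean of Cdkn1a fell below 1 FPKM and the gene was not tested. The gene was also not tested in PRF 50 vs. ND, where its mean was below 1 FPKM.

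RefSeq promoters (GRCm38.p6, 250 bases before to 50 after a start) were at hand for 31 of the 38 members. The bases before the start are shown for 4 members that passed an unadjusted p under 0.05. In fits of all the mice of a single comparison, limma called none of these 4 at an adjusted p under 0.05. With all 9 mice in 1 fit, it called Cdkn1a in HFD vs. ND, with an adjusted p of 0.0486. The promoter of the upstream start of Cdkn1a is shown because it holds the sequence to which p53 binds. The capitals mark 2 adjoining p53 half-sites with at most 1 letter off the consensus, a pattern found on either strand in 0.067% of all 32851 promoters of this length and in 1 of the 31 members. The stretch is chr17:29090829-29090978 on the plus strand.
Cdkn1a: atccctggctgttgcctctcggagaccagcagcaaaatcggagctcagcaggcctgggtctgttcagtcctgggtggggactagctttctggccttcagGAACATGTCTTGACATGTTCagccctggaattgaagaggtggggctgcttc
The match describes these letters and says nothing of p53 binding in these livers.

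The p53 target genes were taken from a list of 25 that includes Cdkn1a, of which 17 were tested in HFD vs. ND, 18 in PRF 50 vs. HFD and 16 in PRF 50 vs. ND. In HFD vs. ND, 8 were higher and 1 lower in HFD at an unadjusted p under 0.05, and in PRF 50 vs. HFD, 1 was higher and 5 were lower in PRF 50. Together these are 52.9% and 33.3% of the targets tested, against 15.1% and 20.2% of all genes. Both shares include Cdkn1a, which was tested only because its level was high in HFD. Between PRF 50 and ND, 3 were higher and 1 was lower in PRF 50 (25%, against 12.5% of all genes), and without PRF 50 mouse 3 these 4 became 2. The median log2 difference of the tested p53 targets was 0.28, -0.16 and 0.10 in the 3 comparisons. At an adjusted p under 0.05, limma called 1 target in HFD vs. ND and 1 in PRF 50 vs. HFD, where it called 1.33% and 3.59% of all genes.

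Ccng1, which codes for cyclin G1, was 3.57, 3.69 and 3.72 in ND, 4.21, 4.55 and 4.28 in HFD, and 4.10, 3.85 and 3.99 in PRF 50. The 3 groups did not overlap, with PRF 50 between the others. The log2 difference of Ccng1 in HFD vs. ND was 0.68 with an adjusted p of 0.0363 in limma, and over the alternatives the adjusted p ran from 0.0254 to 0.131. It passed 0.05 without HFD mouse 1 and missed it without any of the other 5 mice or without a level minimum. Trp53inp1, a stress protein that acts with p53, was 3.18, 3.41 and 3.58 in ND, 4.10, 3.84 and 4.12 in HFD, and 3.51, 3.48 and 3.49 in PRF 50. All HFD livers were again the highest. Its log2 difference was 0.63 in HFD vs. ND (adjusted p 0.0858 in limma, and 0.0414 with all 9 mice in 1 fit) and -0.53 in PRF 50 vs. HFD (adjusted p 0.0371 in limma). The latter ran from 0.0276 to 0.129 over the alternatives and was above 0.05 without any 1 of the 6 mice, so the call needs all of them. It was also above 0.05 without a level minimum or with quantile normalization.

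The targets Ei24, Perp and Fas were also higher in all HFD livers than in all ND livers. In HFD vs. ND, their unadjusted p-values in limma were 0.0200, 0.0276 and 0.00622. That of Ei24 missed 0.05 without ND mouse 9 or HFD mouse 2. That of Perp missed it without ND mouse 7, ND mouse 9 or any 1 HFD mouse. Ei24 was 6.26 to 6.40 in ND, 6.58 to 6.66 in HFD and 6.27 to 6.39 in PRF 50. Perp was 5.77 to 5.98 in ND, 6.11 to 6.18 in HFD and 5.64 to 5.96 in PRF 50, and Fas was 3.39 to 3.70, 3.94 to 4.24 and 3.63 to 4.17. Bax, another abundant target, did not follow: it was 4.09 to 4.46 in ND, 4.24 to 4.43 in HFD and 4.38 to 4.59 in PRF 50. The 1 target that passed an unadjusted p under 0.05 and was lower in HFD than in ND was Plk3, with a log2 difference of -1.58 and an adjusted p of 0.0564 in limma. In all, 6 of the 17 tested targets had a lower mean in HFD. Mdm2, which codes for the main inhibitor of p53, and the repair gene Ercc5 were also lower in every HFD liver than in every ND liver, and like Plk3 they are named after their values were seen. Mdm2 was 2.99 to 3.20 in ND, 2.77 to 2.94 in HFD and 2.87 to 3.04 in PRF 50, and Ercc5 was 2.03 to 2.39 in ND, 1.866 to 2.003 in HFD and 2.18 to 2.34 in PRF 50.

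**Figure D3:**
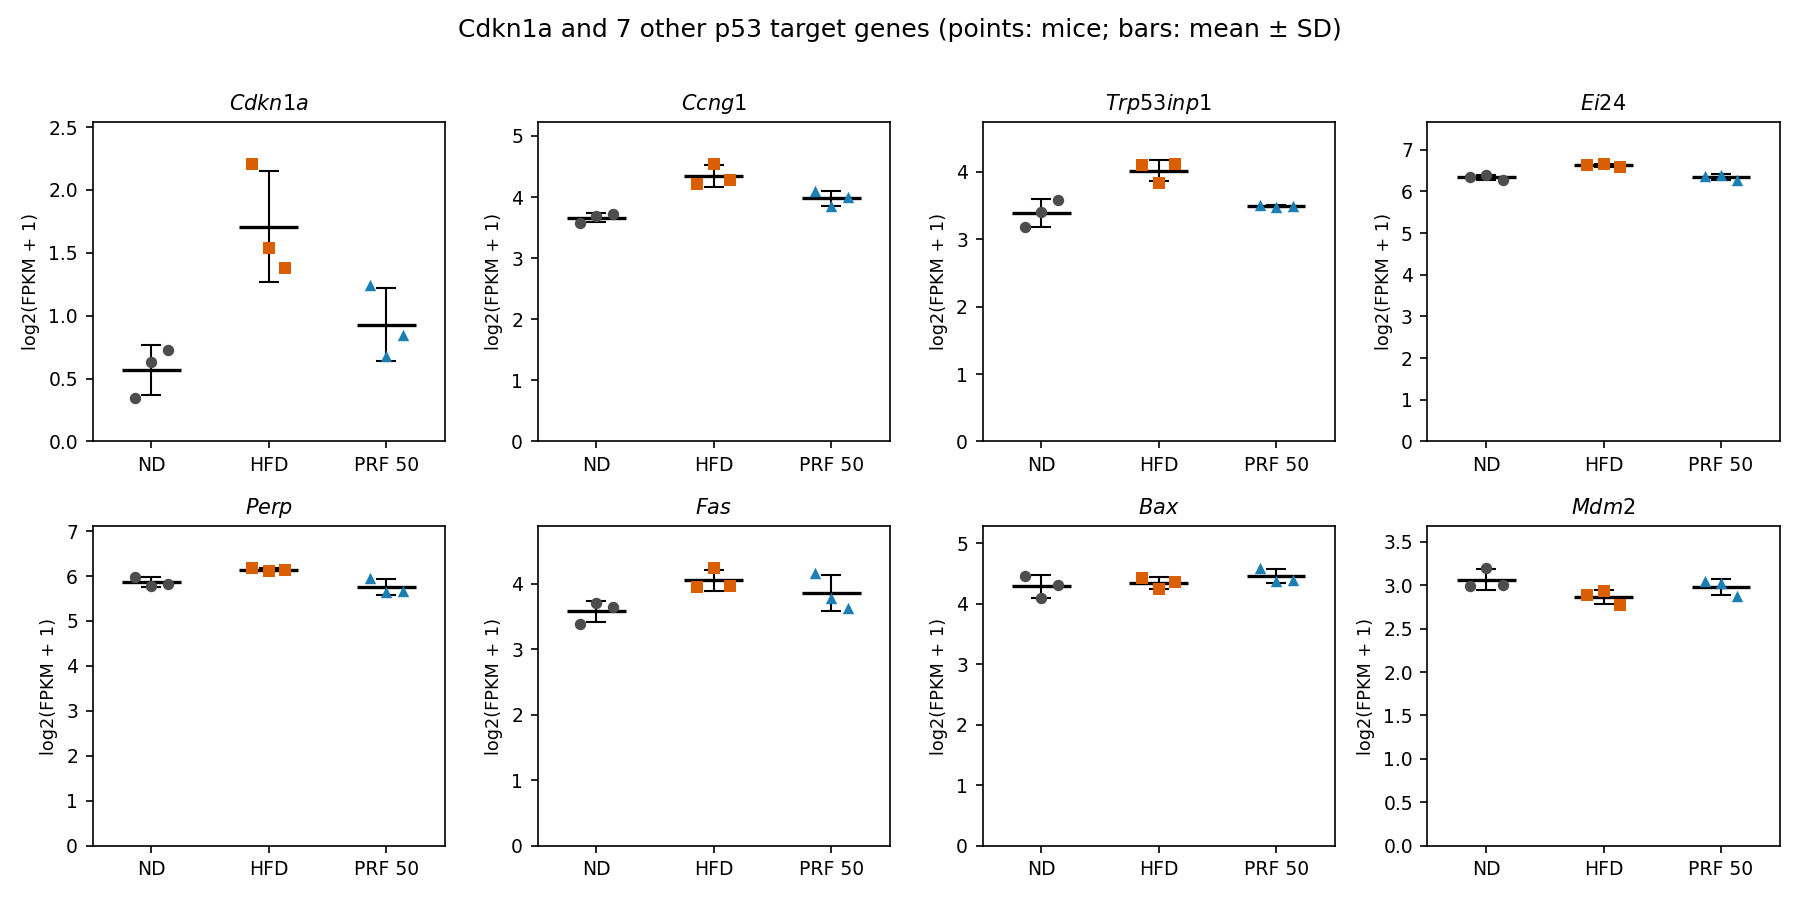
Cdkn1a and 7 other genes of the p53 target list in each liver as log2(FPKM + 1), with the mean and SD of 3 mice a group. Every HFD mouse lies above every ND mouse for the first 6 genes, while the groups overlap for Bax and every HFD mouse lies below every ND mouse for Mdm2. For Cdkn1a, Ccng1, Trp53inp1, Ei24 and Perp every PRF 50 mouse lies below every HFD mouse.

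The kinase Wee1, which delays entry into mitosis, was the 1 gene of the 48 other cell-cycle regulators that limma called at an adjusted p under 0.05 in any comparison. It was 3.19, 2.38 and 2.64 in ND, 3.27, 3.18 and 3.39 in HFD, and 2.60, 2.58 and 2.89 in PRF 50. All PRF 50 livers were below all HFD livers, with a log2 difference of -0.59 and an adjusted p of 0.0411 in limma. Over the alternatives its adjusted p ran from 0.0375 to 0.14, and of the fits that left out 1 mouse only that without PRF 50 mouse 10 kept it under 0.05. It was also above 0.05 with all 9 mice in 1 fit, without a level minimum or with quantile normalization. In HFD vs. ND the difference was 0.54 with an unadjusted p of 0.0244, which missed 0.05 without ND mouse 7, ND mouse 9, HFD mouse 1 or HFD mouse 3, and ND mouse 6 was as high as the HFD mice. Of the 48 regulators, 33 were tested in HFD vs. ND and in PRF 50 vs. HFD and 32 in PRF 50 vs. ND. At an unadjusted p under 0.05, 1 was higher and 2 were lower in HFD than in ND, 4 were lower in PRF 50 than in HFD, and 2 were lower in PRF 50 than in ND. These shares of 9.09%, 12.1% and 6.25% are below those of all genes tested (15.1%, 20.2% and 12.5%). The most abundant of them was Ccni, with 6.16 to 6.25 in ND, 6.07 to 6.22 in HFD and 5.93 to 5.96 in PRF 50.

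Genes of the replication machinery and of nucleotide synthesis made up 10 of the 38. Pcna, the clamp that holds DNA polymerase on its template, was 4.97, 4.82 and 4.77 in ND, 4.61, 4.63 and 4.57 in HFD, and 4.68, 4.54 and 4.61 in PRF 50. All 6 livers on the high-fat diet were below all 3 ND livers. The log2 difference was -0.25 (95% interval -0.47 to -0.02) in HFD vs. ND and -0.24 (95% interval -0.49 to -0.004) in PRF 50 vs. ND, with adjusted p-values of 0.296 and 0.396 in limma. The unadjusted p-values were 0.0349 and 0.0471. The unadjusted p in HFD vs. ND was between 0.0291 and 0.102 when 1 mouse was left out, and it stayed under 0.05 only without ND mouse 9. The corresponding range in PRF 50 vs. ND was 0.0442 to 0.136, again under 0.05 only without ND mouse 9. It was also above 0.05 with median-of-ratios scaling (0.0522), quantile normalization (0.0903) or eBayes without a trend (0.0536). The change was small on the FPKM scale, with means of 28.0 in ND, 23.4 in HFD and 23.4 in PRF 50.

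The 6 Mcm genes code for the ring that unwinds DNA at replication origins. Summed over Mcm2 to Mcm7 they reached 7.27, 8.90 and 8.16 FPKM in ND, 6.17, 9.69 and 11.0 FPKM in HFD, and 11.3, 7.96 and 9.35 FPKM in PRF 50. The groups overlapped, and with all mice no Mcm gene that was tested passed an unadjusted p under 0.05. Mcm2 was 0.62 to 0.69 in ND, 0.50, 1.21 and 1.33 in HFD, and 0.77 to 1.21 in PRF 50. Without a level minimum its difference from ND was 0.34 in PRF 50 (unadjusted p 0.0296 in limma) and 0.36 in HFD (unadjusted p 0.136), and PRF 50 and HFD differed by -0.03. Rrm2, a subunit of the enzyme that makes deoxynucleotides, falls outside the naming rule and is named after its values were seen. It was 1.89, 1.29 and 1.61 in ND, 1.82, 1.76 and 1.50 in HFD, and 0.89, 0.95 and 1.66 in PRF 50. PRF 50 mice 3 and 9 were the lowest of the 9 livers, while PRF 50 mouse 10 lay within the HFD range. Its log2 difference in PRF 50 vs. HFD was -0.53, with an unadjusted p of 0.0438 and an adjusted p of 0.229 in limma, or -0.84 with a pseudocount of 0.1. The unadjusted p missed 0.05 without a level minimum, HFD mouse 1, HFD mouse 2, PRF 50 mouse 3 or PRF 50 mouse 9, and reached 0.00122 without PRF 50 mouse 10, when the difference was -0.78. Rrm1, the other subunit, lay between 1.59 and 2.08 and Tyms, which makes thymidylate, between 1.54 and 1.90.

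E2F factors switch on replication genes. Their motif, sought as TTTCCCGC or as TTTGGCGC on either strand, was in the promoters of Mcm3, Mcm5, Mcm6 and Mcm7, which are 4 of the 9 replication members in the table, in that of Cdk2, and in 1.8% of all genes with a promoter. Of the 46 other DNA replication genes, 24 were tested in HFD vs. ND, 25 in PRF 50 vs. HFD and 24 in PRF 50 vs. ND. At an unadjusted p under 0.05, 1 was higher and 4 were lower in HFD than in ND, 3 were higher and 1 was lower in PRF 50 than in HFD, and 1 was higher and 2 were lower in PRF 50 than in ND. The shares of the tested genes were 20.8%, 16% and 12.5%, against 15.1%, 20.2% and 12.5% of all genes, and none passed an adjusted p under 0.05 in limma. The most abundant was Mcm10, which loads replication factors. It was 4.97, 4.64 and 4.74 in ND, 4.35, 4.11 and 4.32 in HFD, and 4.28, 4.15 and 4.65 in PRF 50. All HFD livers were below all ND livers, and the log2 difference was -0.52 with an adjusted p of 0.105 in limma.

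The 8 mitosis and proliferation markers had means from 0.0439 FPKM for Bub1 to 0.727 FPKM for Aurka. Aurka, a kinase of the spindle poles, was 0.59, 0.51 and 0.77 in ND, 0.83, 0.87 and 0.71 in HFD, and 1.13, 0.60 and 0.97 in PRF 50. Mki67, the standard marker of cycling cells, was 0.16, 0.18 and 0.29 in ND, 0.11, 0.24 and 0.37 in HFD, and 0.37, 0.32 and 0.70 in PRF 50. PRF 50 mouse 10 was the highest, and all PRF 50 livers were above all ND livers while they overlapped with HFD. Top2a, which untangles DNA before division, was 0.09, 0.38 and 0.25 in ND, 0.20, 0.36 and 0.52 in HFD, and 0.47, 0.33 and 0.40 in PRF 50, with groups that overlapped. Summed over the 8 markers, the level was 1.81 ± 0.375 FPKM in ND, 2.33 ± 0.351 in HFD and 2.77 ± 0.648 in PRF 50 (SD, n = 3 each). The other 5 markers, Birc5, Cdc20, Aurkb, Plk1 and Bub1, lay between 0.00 and 0.96.

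The mitotic cyclins were as low. Ccna2 and Ccnb2 are named here after their values were seen. Ccna2 was 0.73, 0.73 and 0.80 in ND, 0.68, 0.77 and 0.69 in HFD, and 0.82, 0.92 and 1.08 in PRF 50, so that every PRF 50 liver was above every other liver. Ccnb2 was 0.23, 0.15 and 0.15 in ND, 0.09, 0.15 and 0.47 in HFD, and 0.59, 0.49 and 0.54 in PRF 50, again with every PRF 50 liver the highest. Without a level minimum, the log2 difference of Ccnb2 was 0.36 in PRF 50 vs. ND, with an adjusted p of 0.0966 and an unadjusted p of 0.000187 in limma. Against HFD it was 0.30 for Ccnb2 and 0.23 for Ccna2, with unadjusted p-values of 0.0247 and 0.0359 and adjusted p-values of 0.228 and 0.267. Ccna2 differed from ND by 0.19, with an unadjusted p of 0.0756. Mki67 differed by 0.26 in PRF 50 vs. ND, with an unadjusted p of 0.0457. The difference of Ccnb1 from ND was alike in PRF 50 (0.16, unadjusted p 0.00506) and in HFD (0.14, unadjusted p 0.0192), and PRF 50 and HFD differed by 0.02. Of the 38 members, 8 overlap a protein-coding gene on the other strand (Ccna2, Ccnd1, Ccnd3, Ccne2, Cdc20, Cdk2, Cdk4 and Mcm7). As the strand used in counting is not stated, the part of the neighbours' reads in these values was not tested.

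The livers with the higher values of Ccna2 and Ccnb2, neither of which passed an adjusted p under 0.05 in limma, also had more transcripts of Kupffer cells and macrophages, which can divide. All 14 markers of that list were higher in PRF 50 than in HFD at an unadjusted p under 0.05, and limma called 12 of them at an adjusted p under 0.05, against 20.2% and 3.59% of all genes. The 14 held when any 1 mouse was left out, but the 12 did not, becoming 2 without HFD mouse 2, 0 without HFD mouse 3, 1 without PRF 50 mouse 3 and 7 without PRF 50 mouse 10. Against ND, 13 were higher at an unadjusted p under 0.05 and limma called 0 at an adjusted p under 0.05, or 3 without ND mouse 9, against 12.5% and 0.458% of all genes with all mice. The summed level of the 14 markers was 112, 200.3 and 254 FPKM in ND, 133, 204 and 210.2 FPKM in HFD, and 692, 434 and 444 FPKM in PRF 50, with Cd5l the most abundant and none listed at 0 in all livers. Timd4, a marker of resident Kupffer cells, was 1.70 ± 0.32 in ND, 1.37 ± 0.31 in HFD and 2.85 ± 0.24 in PRF 50 (mean log2 level, SD, n = 3 each). Vsig4 was 2.94 to 4.34 in ND, 3.54 to 4.11 in HFD and 5.01 to 5.36 in PRF 50. The 9 pan-leukocyte markers, led by Tyrobp, summed to 46.1 to 79.1 FPKM in ND, 50.9 to 68.3 FPKM in HFD and 110.5 to 209 FPKM in PRF 50. PRF 50 mouse 3 was the highest for both immune lists and for Ccnb2, and PRF 50 mouse 10 was the highest for Mki67 and Ccna2. Other cell types also had higher sums. Every PRF 50 liver was above every HFD liver for the 15 T, NK and B cell markers, which overlapped with ND. For the 9 cholangiocyte markers, every PRF 50 liver was above every ND liver, with overlap with HFD. Whether the mitotic transcripts came from any of these cells was not tested.

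**Figure D4:**
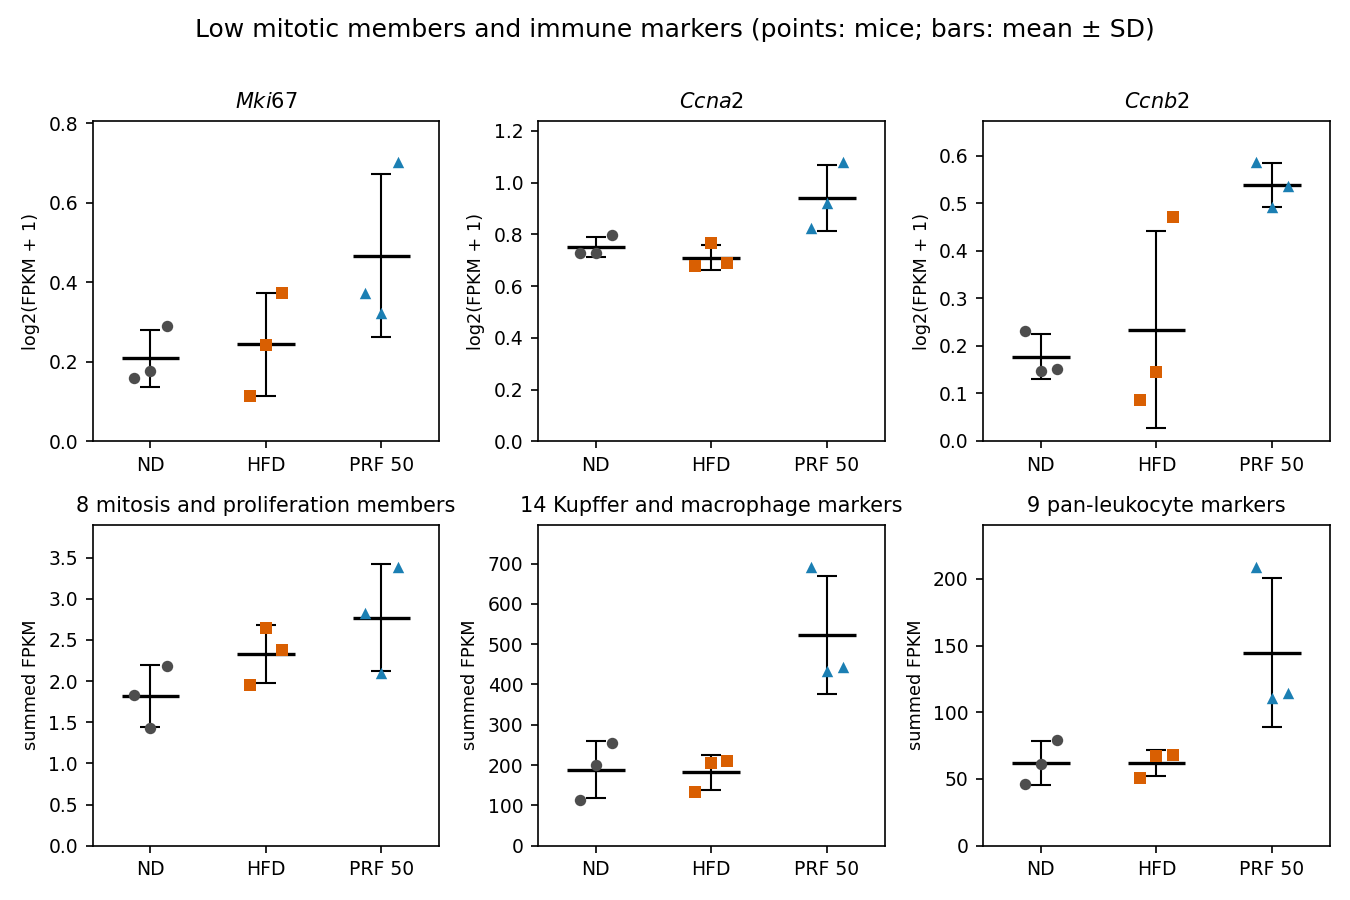
Mki67, Ccna2 and Ccnb2 as log2(FPKM + 1), and the summed FPKM of the 8 mitosis and proliferation members, of 14 Kupffer cell and macrophage markers and of 9 pan-leukocyte markers, 1 point per mouse with the mean and SD of 3 mice a group. PRF 50 mice are the highest for Ccna2, Ccnb2 and both immune sums, while the 8 members overlap between groups.

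Genes of mitosis share a promoter layout in which CCAAT boxes, bound by NF-Y, lie near a CHR element, through which the DREAM complex silences them in resting cells. Both motifs, sought as CCAAT and as TTTGAA on either strand, were in the promoters of Aurka, Ccnb2, Cdc20, Cdk1, Mki67, Plk1 and Top2a, which are 7 of the 10 members among the mitosis class, the mitotic cyclins and Cdk1 that the table holds. Among the other members only Mcm2 held both, which makes 8 of 31, and both were in 7.97% of all genes with a promoter. The CCAAT box alone was in 25 of the 31 members, against 41.1% of all genes with a promoter. The bases before the start are shown for Mki67 (chr7:135716380-135716572, minus strand) and Ccnb2 (chr9:70421555-70421726, minus strand), because of these 7 they are the ones that passed an unadjusted p under 0.05 in PRF 50 vs. ND without a level minimum. The capitals mark the CCAAT boxes, some on the other strand, and the CHR letters.
Mki67: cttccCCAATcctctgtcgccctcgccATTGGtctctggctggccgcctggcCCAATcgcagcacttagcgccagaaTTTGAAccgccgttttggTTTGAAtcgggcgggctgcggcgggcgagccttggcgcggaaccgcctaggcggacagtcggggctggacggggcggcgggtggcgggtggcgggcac
Ccnb2: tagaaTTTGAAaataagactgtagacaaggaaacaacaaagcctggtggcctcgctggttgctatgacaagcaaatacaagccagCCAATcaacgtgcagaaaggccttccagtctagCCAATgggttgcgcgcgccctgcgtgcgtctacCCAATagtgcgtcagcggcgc
Both hold 3 CCAAT boxes, with 2 matches to the CHR letters in Mki67 and 1 in Ccnb2, and a match is not shown to be a working site.

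Of the 57 other mitosis genes, only 12 reached the level minimum in each comparison. At an unadjusted p under 0.05, 1 was higher and 1 lower in HFD than in ND, 1 higher and 1 lower in PRF 50 than in HFD, and 1 lower in PRF 50 than in ND, and limma called 0 at an adjusted p under 0.05. These are 16.7%, 16.7% and 8.33% of the 12, against 15.1%, 20.2% and 12.5% of all genes. The most abundant was Pttg1 (securin), at 2.75 in ND mouse 6 and 4.45 to 5.43 in the other 8 livers. Cks1b, a small partner of CDKs, was 3.85, 3.12 and 3.11 in ND, 2.32, 2.64 and 2.59 in HFD, and 2.92, 2.55 and 2.68 in PRF 50. All 6 livers on the high-fat diet were below the ND livers, and in HFD vs. ND the log2 difference was -0.84 with an adjusted p of 0.12 in limma. Spc24, a kinetochore protein, was 3.26 to 4.02 in ND, 3.74 to 4.02 in HFD and 3.13 to 3.58 in PRF 50, where the log2 difference from HFD was -0.50 with an adjusted p of 0.102 in limma.

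The growth arrest and stress genes were Gadd45a, Gadd45b, Gadd45g and Btg2. Gadd45a was the most abundant, with 2.85, 2.33 and 2.83 in ND, 2.50, 3.34 and 2.98 in HFD, and 2.89, 2.26 and 2.29 in PRF 50, and its groups overlapped. Gadd45g, whose protein activates stress kinases and restrains Cdk1, was 3.46, 3.50 and 2.43 in ND, 1.98, 0.98 and 2.19 in HFD, and 2.19, 1.52 and 1.83 in PRF 50. All 6 livers on the high-fat diet were below the lowest ND liver, ND mouse 9. The log2 difference was -1.41 (95% interval -2.28 to -0.55) in HFD vs. ND and -1.28 (95% interval -1.98 to -0.58) in PRF 50 vs. ND, with adjusted p-values of 0.14 and 0.138 in limma. The unadjusted p-values were 0.00551 and 0.00297. Between PRF 50 and HFD it differed by 0.13, with a 95% interval from -0.62 to 0.88. Without ND mouse 9 the difference in PRF 50 vs. ND was -1.64 and limma called it with an adjusted p of 0.0279, and over all alternatives that adjusted p ran from 0.0279 to 0.349. Gadd45b lay between 0.19 and 1.35 and Btg2 between 1.44 and 2.58.

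Gadd45g is induced within minutes to hours of many stimuli, as immediate early genes are. The 17 immediate early genes, led by Zfp36, summed to 174, 185 and 94.7 FPKM in ND, 115, 90.6 and 105 FPKM in HFD, and 121, 115.5 and 79.1 FPKM in PRF 50. ND mice 6 and 7 had the highest sums, which are carried by abundant genes such as Zfp36 and Dusp1. Fos, named after its values were seen, did not follow, at 0.32 and 0.50 in ND mice 6 and 7 against 0.25 to 0.97 in HFD. Dusp1 was 4.62, 4.17 and 3.21 in ND, 3.16, 3.01 and 3.72 in HFD, and 2.83, 2.40 and 2.26 in PRF 50. Of the 11 immediate early genes tested in each comparison, 2 were lower in HFD than in ND, 3 were lower in PRF 50 than in HFD, and 1 was higher and 2 were lower in PRF 50 than in ND at an unadjusted p under 0.05, and limma called 0 at an adjusted p under 0.05. The shares are 18.2%, 27.3% and 27.3% of the 11, against 15.1%, 20.2% and 12.5% of all genes. The part of such stimuli in the values of Gadd45g was not tested. The bases before the start of Gadd45g (chr13:51846525-51846674, plus strand) are shown because it was lower in all 6 livers on the high-fat diet than in all ND livers. The capitals mark an E-box, CACGTG, and a CCAAT box.
Gadd45g: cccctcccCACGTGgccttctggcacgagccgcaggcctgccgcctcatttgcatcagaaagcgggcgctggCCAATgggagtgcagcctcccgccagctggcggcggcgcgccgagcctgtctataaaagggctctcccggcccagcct
An E-box of these letters, which MYC and the clock factors bind, was found on either strand in 6 of the 31 members (Cdk4, Cdk6, Cdkn2c, Gadd45b, Gadd45g and Tyms) and in 8.09% of all genes with a promoter.

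The transcription factor Myc (chr15:61985391-61990374, GRCm38) raises genes of growth and of ribosome production. With the 6 mice of a comparison, it was the 1 member that limma called at an adjusted p under 0.05. This call rests on the level minimum, which Myc reached only through the ND mice, where it is high. It was 2.18, 1.70 and 1.58 in ND, 0.87, 0.33 and 0.48 in HFD, and 1.02, 0.96 and 0.95 in PRF 50. The 3 groups did not overlap, with ND highest and HFD lowest, and on the FPKM scale the means were 2.59, 0.494 and 0.968. The log2 difference in HFD vs. ND was -1.26 (95% interval -1.73 to -0.79), with an adjusted p of 0.0318 in limma, and its size was -2.25 with a pseudocount of 0.1 in place of 1. The adjusted p was under 0.05 without ND mouse 9 or HFD mouse 1, and above it without ND mouse 6 (0.0718), ND mouse 7 (0.107), HFD mouse 2 (0.111) or HFD mouse 3 (0.126), and without a level minimum, where the test does not depend on the ND level, it was 0.0979. That in PRF 50 vs. ND was -0.84 (95% interval -1.24 to -0.45), with an adjusted p of 0.0914 in limma and an unadjusted p of 0.00113, or -1.29 with the smaller pseudocount. The mean of Myc in PRF 50 vs. HFD was below 1 FPKM, so it was not tested there. Without a level minimum its difference was 0.42, with an adjusted p of 0.223 and an unadjusted p of 0.0235 in limma.

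**Figure D5:**
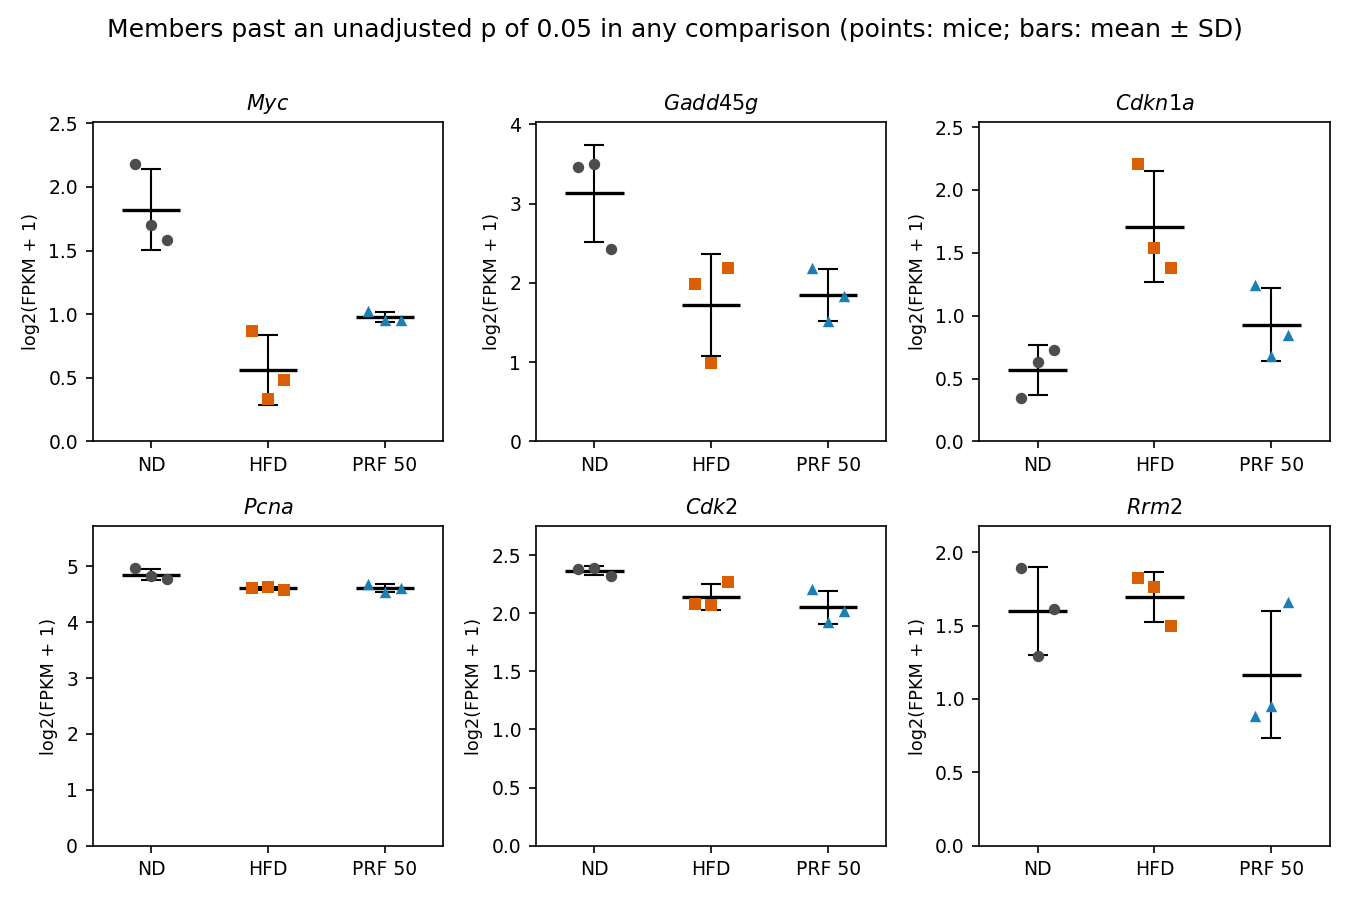
The 6 members that passed an unadjusted p under 0.05 in any comparison with all mice and the level minimum of 1 FPKM, as log2(FPKM + 1). There is 1 point per mouse, with the mean and SD of 3 mice a group. ND mice are the highest for Myc, Gadd45g, Pcna and Cdk2, HFD mice for Cdkn1a, and the groups overlap for Rrm2.

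Clock genes are given beside these values, because Wee1, Cdkn1a and Myc are under circadian control in liver and the time of sampling is not stated. Of 19 clock genes, 17 were tested in HFD vs. ND and PRF 50 vs. ND and 16 in PRF 50 vs. HFD. At an unadjusted p under 0.05, 3 were higher and 2 were lower in HFD than in ND, 3 were lower in PRF 50 than in HFD, and 3 were lower in PRF 50 than in ND. These are 29.4%, 18.8% and 17.6% of the clock genes tested, against 15.1%, 20.2% and 12.5% of all genes. Bhlhe41 was 1.83, 1.77 and 1.63 in ND, 0.55, 1.07 and 0.67 in HFD, and 1.24, 0.80 and 0.97 in PRF 50, with an adjusted p of 0.032 in limma for HFD vs. ND. It too reached the level minimum only through the ND mice, and without a minimum the adjusted p was 0.0909. Among the fits that left out 1 mouse, the call held only without HFD mouse 2. Dbp, the most abundant and one of the most rhythmic, was 5.93 to 6.58 in ND, 5.79 to 6.22 in HFD and 6.06 to 6.20 in PRF 50, and the groups overlapped. The groups HFD and ND did not overlap for Nr1d1 and Cry1, though neither passed an adjusted p under 0.05 in limma (0.139 and 0.113). Nr1d1 was 4.89 to 5.56 in ND, 4.22 to 4.70 in HFD and 4.64 to 4.90 in PRF 50, and Cry1, named after its values were seen, was 1.23 to 1.36 in ND, 1.62 to 1.93 in HFD and 1.11 to 1.48 in PRF 50. The part of sampling time in the values of Wee1, Cdkn1a and Myc was not tested.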

How the data were processed

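Liver RNA-Seq of 9 mice was used (poly(A)-selected, stranded, paired-end libraries). Reads were trimmed by the authors (FASTX_Trimmer, BBMap) and mapped to mm10 (TopHat), and the authors obtained FPKM from Cufflinks, with geometric normalization. The authors deposited 1 log2 value per gene symbol and mouse, read here as log2(FPKM + 1). Tool versions and the gene annotation are not given in the sources used here, nor is the strand used in counting. Depth per sample is unknown, because counts were not used here.

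Groups were compared in R (version 4.3.3) by limma (version 3.58.1), using lmFit and a trended eBayes, on the 6 mice of the 2 groups and all genes that averaged 1 FPKM or more. P-values were adjusted over all genes tested by the Benjamini-Hochberg method. The steps were tested on simulated data. The members and lists were chosen with earlier results of these data known.

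Values in every liver are given for members past an adjusted p of 0.05, members past an unadjusted p of 0.05 whose groups do not overlap, the most abundant member of each role, Mki67 and Top2a. Up to 6 genes of each other list were named, those past an adjusted p of 0.05 and then the most abundant. The lists held other mitosis, replication and regulator genes, p53 targets, immediate early and clock genes, and markers of liver and blood cell types. Gene positions are from GENCODE M21 and promoters from RefSeq, both on GRCm38. The alternatives were a fit of all 9 mice, fits without each mouse, quantile normalization, scaling by the median of ratios, eBayes without a trend, a pseudocount of 0.1, and a level minimum of 10 FPKM or none.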

Additional observations from a re-analysis of the deposited data

How the results depend on the processing

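In HFD vs. ND, the count of members at an adjusted p under 0.05 was 1 and became 2 with all 9 mice in 1 fit, 0 without a level minimum and 0 with a minimum of 10 FPKM. It ranged from 0 to 1 when 1 mouse was left out, as it did in PRF 50 vs. ND, where it was 0 with all mice. At an unadjusted p under 0.05, the counts of 4, 2 and 4 members in HFD vs. ND, PRF 50 vs. HFD and PRF 50 vs. ND became 1, 0 and 1 with a minimum of 10 FPKM, where only Ccnd3, Cdk4 and Pcna could be tested. Without a level minimum, which adds the members below 1 FPKM, the latter 2 became 4 and 8. Leaving out 1 mouse gave 3 to 7, 1 to 5 and 2 to 5 members. The counts of all genes at an adjusted p under 0.05, 133, 362 and 46, became 37, 126 and 11 without a level minimum, and 46 became 102 with all 9 mice in 1 fit; the cause was not tested. Leaving out 1 mouse gave 35 to 140, 15 to 242 and 4 to 71 genes. The 12 Kupffer cell and macrophage markers called in PRF 50 vs. HFD became 3 without a level minimum, and the 0 in PRF 50 vs. ND became 3 with all 9 mice in 1 fit. The 3 endothelial markers past an unadjusted p of 0.05 in HFD vs. ND became 0 with a minimum of 10 FPKM. The 10 member differences past an unadjusted p of 0.05 with all mice and the level minimum gave 121 values under the alternatives that could test them. Of these, 100 kept the direction and an unadjusted p under 0.05, 21 kept the direction only, and 0 reversed. The 10 were picked for passing, and the alternatives reuse the same mice. Apart from Rrm2, their groups do not overlap, so leaving out 1 mouse could not reverse a direction. No paired analysis was possible, because the mouse numbers pair no animals. The depth of the libraries is unknown, which limits every value below 1 FPKM, and whole liver does not show which cells hold a transcript. Each group has 3 mice, and leaving out single mice ended the calls of Myc, Ccng1, Trp53inp1, Wee1 and Bhlhe41 at an adjusted p under 0.05. Of the 10 member differences, those of Cdkn1a, Gadd45g and Myc stayed under an unadjusted p of 0.05 in every alternative that could test them. Those of Pcna, Rrm2 and Cdk2 did not. Cdkn1a and Myc reached the level minimum only through the group where they are high, so except without a minimum, being tested depended on the difference. For Cdkn1a in HFD vs. ND, the fit without its highest mouse, HFD mouse 1, could not be made.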

Other observations

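The remaining cell type lists were as follows. The counts are at an unadjusted p under 0.05, which 15.1%, 20.2% and 12.5% of all genes passed in HFD vs. ND, PRF 50 vs. HFD and PRF 50 vs. ND. Of the 14 hepatocyte markers, led by Apoa1 and with Alb at 0 in all livers, 13 were tested, with 2 lower in HFD than in ND (15.4%), and 1 higher and 1 lower in PRF 50 than in HFD (15.4%). Of the 10 stellate cell markers, led by Dcn, 9 were tested in HFD vs. ND and in PRF 50 vs. HFD, with 2 higher in HFD than in ND (22.2%) and 2 lower in PRF 50 than in HFD (22.2%). Only 3 of the 9 cholangiocyte markers were tested in PRF 50 vs. ND, and 2 of these were higher in PRF 50. Of the 8 erythroid markers, led by Hba-a1, 6 were tested, with 1 higher in HFD than in ND, 1 lower in PRF 50 than in HFD and 1 lower in PRF 50 than in ND (16.7% each). Only 2 of the 8 neutrophil markers, led by S100a8, were tested, and 1 of these was higher in PRF 50 than in HFD. The 8 summed to 56.4, 19.4 and 3.28 FPKM in PRF 50 mice 3, 9 and 10, against 2.96 to 9.12 FPKM in the ND and HFD mice. The 15 T, NK and B cell markers, led by Cd79b, summed to 4.44 to 7.94 FPKM in ND, 2.44 to 3.02 FPKM in HFD and 4.41 to 8.75 FPKM in PRF 50. The highest value in HFD mouse 2 was that of Rnu6, at 22.44.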
